A study of Caenorhabditis elegans with 2 samples.

Results

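Translation factors are the proteins that carry the ribosome through the start and the elongation of a protein chain. The genes described here are the protein-coding genes of Caenorhabditis elegans whose symbol starts with eif-, eef-, iff-, ife-, ifg- or inf- followed by a number, together with egl-45, and 41 of the 19973 protein-coding genes of the nuclear chromosomes met this rule. The rule used the symbols alone and no measured value, but this group of genes was chosen with earlier results of these data known. Its share of bound genes is therefore a description and was not tested. Each gene was looked up in lists of chromatin immunoprecipitation sequencing (ChIP-seq) peaks of the nuclear hormone receptor NHR-90, and it was called bound when a peak summit lay between 1000 bp upstream and 200 bp downstream of the 5′ end of one of its transcripts.

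The experiment had 1 group of 2 biological replicates, which were whole hermaphrodite L1 larvae, the first larval stage, taken 6 h after synchronisation of larvae that had been starved after bleaching. Their strain, OP483, has the genotype unc-119(tm4063) III; wgIs483, in which the transgene wgIs483 makes NHR-90 with GFP and FLAG at its C-terminal end. Chromatin was sheared by sonication. The labels describe a precipitation with an antibody against GFP, while their antibody field reads nhr-90. The authors called the peaks against a control, as the file listings state. The control's own data are not analysed here, no comparison with an untagged strain was made, and the number of reads per library is unknown. The material is whole animals: a stronger peak from more cells carrying the tagged protein and one from more protein at the site in each cell cannot be told apart. The labels do not give the tissues that make the transgene. The 4 lists used were the candidates of replicate 1 (27854), the candidates of replicate 2 (26708), the pooled candidates (30000) and the optimal list of 4133 peaks that passed the authors' reproducibility threshold. The signal of a peak is the authors' own value, on a scale that the sources do not state, and ranks count from 1 for the strongest peak of a list. The optimal list held the 4133 strongest pooled candidates, with signals between 69.4 and 1699.5 and a median of 123.6.

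Initiation begins when eIF2 brings the initiator tRNA to the small ribosomal subunit, on which eIF1, eIF1A and the many-subunit complex eIF3 are seated. The cap-binding complex eIF4F, made of eIF4E, eIF4G and the helicase eIF4A, recruits the mRNA, and eIF2B recharges eIF2 with GTP for the next round, a step that stress kinases restrain by phosphorylating eIF2. In elongation, eEF1A delivers aminoacyl-tRNAs, the eEF1B subunits recharge eEF1A, eEF2 moves the ribosome along the mRNA, and eIF5A relieves stalling. Nuclear hormone receptors are zinc-finger transcription factors that in many cases respond to small lipophilic ligands, and this nematode has an unusually large family of them.

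The DNA under the summits of 8 bound genes is shown to give an example from several groups of factors: eIF5A, eIF3, the elongation factors and the bound cap-binding protein, from rank 25 for iff-2 to rank 2406 for eif-3.G. Each stretch reads 5′ to 3′ on the strand of its gene. It covers the summit and at most 50 bp on each side, shortened where it would enter an exon of a protein-coding gene. The sequences come from the RefSeq genome of WBcel235, which has the chromosome lengths of ce11. Capitals mark the word GAGAGA and the word CAAACAC, the second of which appears as GTGTTTG where it lies on the other strand.
iff-2: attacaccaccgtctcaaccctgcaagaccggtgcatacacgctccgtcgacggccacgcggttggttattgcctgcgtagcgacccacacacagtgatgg
eif-3.B: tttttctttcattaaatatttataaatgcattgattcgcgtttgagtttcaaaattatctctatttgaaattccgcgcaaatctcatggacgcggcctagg
eef-1A.1: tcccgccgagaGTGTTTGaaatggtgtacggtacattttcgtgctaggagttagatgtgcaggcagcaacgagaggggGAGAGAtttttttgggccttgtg
eef-1G: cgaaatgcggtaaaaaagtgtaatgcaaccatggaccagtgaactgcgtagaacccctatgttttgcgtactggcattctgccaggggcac
eef-1B.1: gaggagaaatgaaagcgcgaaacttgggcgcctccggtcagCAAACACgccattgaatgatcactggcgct
eef-1A.2: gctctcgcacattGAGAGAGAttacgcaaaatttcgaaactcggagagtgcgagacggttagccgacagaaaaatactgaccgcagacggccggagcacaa
ife-2: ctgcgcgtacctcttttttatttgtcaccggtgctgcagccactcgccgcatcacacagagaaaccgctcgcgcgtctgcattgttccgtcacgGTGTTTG
eif-3.G: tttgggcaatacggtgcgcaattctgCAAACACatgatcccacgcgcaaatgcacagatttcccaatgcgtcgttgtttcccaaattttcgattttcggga
The positions on ce11 were chrII:8561398-8561498 (minus strand) for iff-2, chrII:14795076-14795176 (plus strand) for eif-3.B, chrIII:6972053-6972153 (minus strand) for eef-1A.1, chrV:10965628-10965718 (plus strand) for eef-1G, chrIII:7973387-7973457 (minus strand) for eef-1B.1, chrX:7823244-7823344 (plus strand) for eef-1A.2, chrX:382856-382956 (minus strand) for ife-2 and chrII:8442403-8442503 (plus strand) for eif-3.G. The stretch at eef-1A.2 holds 2 overlapping copies of GAGAGA, and that at eef-1A.1 holds both marked words. Those at iff-2, eif-3.B and eef-1G hold neither. Over all 22 bound summits GAGAGA was at 3, and CAAACAC, picked as the most frequent word in these same windows, was at 8. The stretches shown thus hold the marked words more often than the whole set.

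Of the 41 genes, 22 (53.7%) were bound in the optimal list, against 14.7% of all protein-coding genes. Among the coding genes that have a symbol of letters and a number, as these genes do, the share was 18.4%. A pooled candidate of any strength lay in the window of 37 of the 41 genes (90.2%), against 45.4% of all protein-coding genes. Bound genes were present on every chromosome that held members. The count was 9 of 12 on chromosome I, 4 of 12 on II, 3 of 8 on III, 2 of 2 on IV, 2 of 4 on V and 2 of 3 on X. The share of all coding genes bound ran between 10.7% on V and 20.4% on III.

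The 22 genes were bound at 22 separate peaks, which had a median signal of 193.3. Their median percentile of signal in the optimal list was 74.0, against 53.9 for the 2410 optimal peaks in windows of any coding gene. The peaks ranked high as a set but spanned nearly the whole list: 3 were among the 100 strongest optimal peaks, 9 among the 500 strongest and 16 in the upper 50% by signal, while the weakest, at eef-1B.2, had rank 3573. With only that upper 50% as the rule, those 16 genes were bound, against 8.59% of all protein-coding genes.

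**Figure D1:**
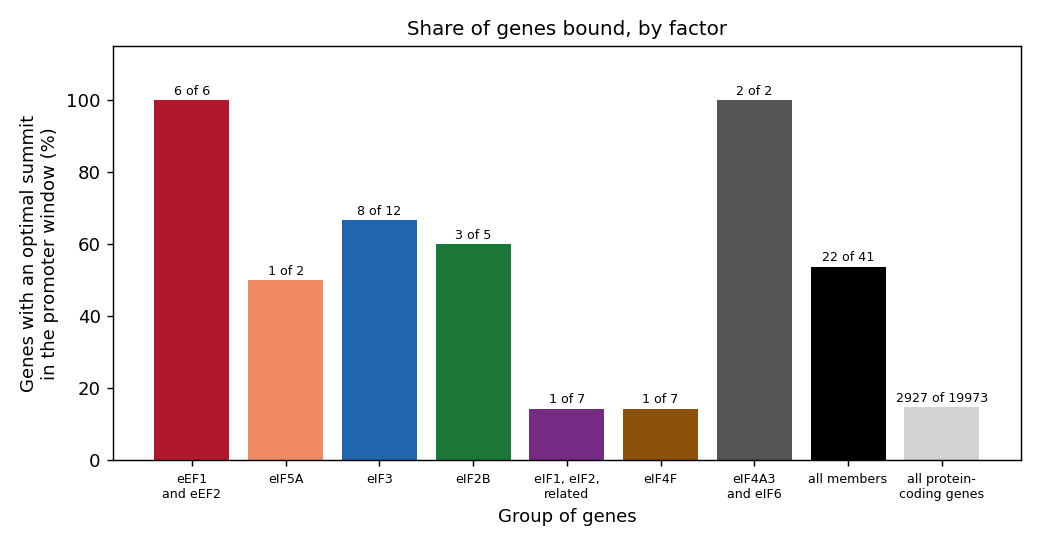
Share of genes with an optimal summit in the promoter window (vertical axis, percent), with 1 bar for each of the 7 groups of factors, then all 41 genes and all 19973 protein-coding genes; the numbers over the bars are bound genes of all genes in the group. The bars for eEF1 and eEF2 (6 of 6) and for eIF4A3 and eIF6 (2 of 2) reach 100%, and those for eIF1 and eIF2 and for eIF4F (1 of 7 each) are close to the 14.7% of all coding genes.

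Every gene of the elongation factors eEF1 and eEF2 was bound, 6 of 6, with signals between 78.2 and 556.7 and a median of 455.2. The 2 genes for eEF1A, which delivers aminoacyl-tRNAs to the ribosome, both had strong peaks. The summit at eef-1A.1 had signals of 303.8 in replicate 1 (rank 107) and 253.7 in replicate 2 (rank 145), and 556.7 in the optimal list (rank 124). That at eef-1A.2 had 195.7 in replicate 1 (rank 323) and 196.3 in replicate 2 (rank 268), and 392.3 in the optimal list (rank 298). The ranks of the replicates were close for both genes. For eef-2, which encodes the translocation factor, the signals were 253.0 in replicate 1 (rank 176), 242.0 in replicate 2 (rank 160) and 500.9 in the optimal list (rank 159). The summit lay 3 bp downstream of its 5′ end, the only bound summit of the 22 on the transcribed side.

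The eEF1B complex returns eEF1A to its GTP-bound form, and eEF1G is its gamma subunit. At eef-1G the signals were 250.4 in replicate 1 (rank 178), 219.0 in replicate 2 (rank 200) and 468.1 in the optimal list. At eef-1B.1 they were 232.8 in replicate 1 (rank 216), 205.7 in replicate 2 (rank 239) and 442.3 in the optimal list. These 2 peaks were thus of nearly the same height, while the peak at eef-1B.2 was the weakest of all bound members. It had 54.8 in replicate 1 (rank 2475), 35.7 in replicate 2 (rank 4266) and 78.2 in the optimal list, so it was outside the 4133 strongest candidates of replicate 2 and was not bound with replicate 2 alone.

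The strongest peak at any of the 41 genes was at iff-2, the somatic gene for eIF5A. It had 482.7 in replicate 1 (rank 31), 460.0 in replicate 2 (rank 21) and 944.2 in the optimal list (rank 25), with the summit 81 bp upstream. The other gene for eIF5A, iff-1, which is known for its role in the germline, had no optimal summit. Its strongest pooled candidate had a signal of 35.4 (rank 9391), and its candidates had rank 14890 in replicate 1 and 14045 in replicate 2. Both replicates thus set the 2 paralogues far apart.

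**Figure D2:**
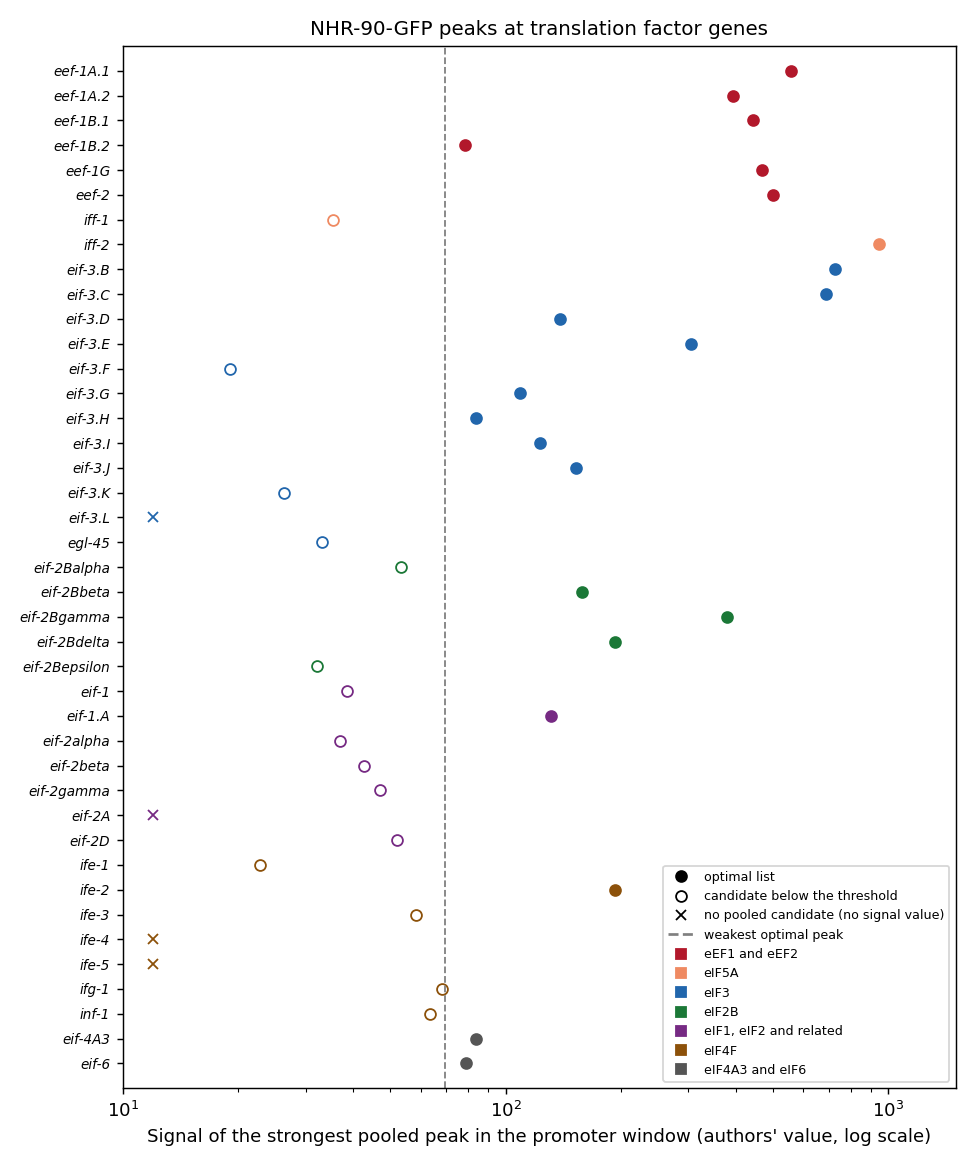
Signal of the strongest pooled peak in the promoter window of each of the 41 genes (horizontal axis, log scale, the authors' value), with colours for the groups of factors; filled points are in the optimal list, open points are candidates below its weakest peak at 69.4 (dashed line), and crosses at the left edge have no pooled candidate and no value. The elongation factor genes other than eef-1B.2 lie between 392.3 and 556.7, and the open points reach up to ifg-1 at 68.1.

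The scaffold complex eIF3 had 8 of its 12 genes bound, with signals between 83.8 and 727.7 and a median of 145.7. The core subunits B and C led. The peak at eif-3.B had 358.5 in replicate 1 (rank 75), 368.7 in replicate 2 (rank 49) and 727.7 in the optimal list (rank 58). That at eif-3.C had 359.3 in replicate 1 (rank 74), 325.9 in replicate 2 (rank 73) and 688.3 in the optimal list (rank 70). In replicate 1 the 2 were of nearly equal height, and eif-3.E followed with 126.1 in replicate 1 (rank 723), 177.6 in replicate 2 (rank 339) and 304.8 in the optimal list. The other bound subunit genes were weaker: eif-3.J had 152.7, eif-3.D had 138.8, eif-3.I had 122.7, eif-3.G had 109.4 and eif-3.H had 83.8 in the optimal list. The gene eif-3.H had rank 4806 in replicate 1, outside its 4133 strongest candidates, and rank 3735 in replicate 2.

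The 4 unbound eIF3 genes included the largest core subunit, eIF3A, encoded by egl-45. Its strongest pooled candidate had a signal of 33.2 (rank 10318). Its strongest candidates in the replicates, whose summits were 159 bp apart, had rank 9809 in replicate 1 and 22913 in replicate 2. The pooled candidates at eif-3.K (26.3, rank 14194) and eif-3.F (19.1, rank 22482) were weaker still, and no list had a candidate at eif-3.L. Genes for subunits of a single complex thus ranged between place 58 of the pooled list and no candidate at all.

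The guanine nucleotide exchange factor eIF2B had 3 of 5 subunit genes bound. None of the subunit genes of its substrate eIF2 was bound, with a share of 14.7% over all protein-coding genes. With each summit given only to the nearest 5′ end of any gene, eif-2Bbeta and eif-2Bgamma were not bound. With a window from 2000 bp upstream, eif-2alpha was. Counts this small do not set eIF2B and eIF2 apart. For eif-2Bgamma the signals were 172.4 in replicate 1 (rank 421), 207.7 in replicate 2 (rank 232) and 380.0 in the optimal list. The summit lay 890 bp upstream of the gene, inside an intron, and only 13 bp from the 5′ end of mir-1831 and 20 bp from that of sup-39, both annotated as snRNA genes. For eif-2Bdelta the signals were 99.0 in replicate 1 (rank 1068), 98.7 in replicate 2 (rank 1053) and 193.1 in the optimal list. For eif-2Bbeta they were 85.4 in replicate 1 (rank 1330), 70.4 in replicate 2 (rank 1751) and 158.9 in the optimal list. The replicates placed eif-2Bdelta at almost the same rank. The alpha subunit gene had a pooled candidate of 53.3 and the epsilon subunit gene, which encodes the catalytic subunit, one of 32.1, both below the weakest optimal peak.

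Of the 7 genes for eIF1, eIF2 and related factors, only eif-1.A was bound (1 of 7). This gene, for the scanning factor eIF1A, had 62.1 in replicate 1 (rank 2131), 65.3 in replicate 2 (rank 1935) and 131.4 in the optimal list. The strongest pooled candidates at the genes of the 3 eIF2 subunits had signals of 47.1 for eif-2gamma, 42.6 for eif-2beta and 36.9 for eif-2alpha. The candidate at eif-2D, for a non-canonical initiation factor, had 52.1, and that at eif-1, for the start codon selection factor eIF1, had 38.6. No pooled candidate lay at eif-2A, where replicate 2 alone held a weak one (rank 19652).

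The eIF4F complex also had 1 of 7 genes bound. The bound gene was ife-2, for a somatic cap-binding protein, with 92.6 in replicate 1 (rank 1177), 100.6 in replicate 2 (rank 1007) and 193.6 in the optimal list. The genes for the other cap-binding proteins were not bound: ife-3 had a pooled candidate of 58.3 and ife-1 one of 22.8, ife-4 a candidate in replicate 2 alone (rank 17268), and ife-5 none in any list. Of these, ife-1, ife-3 and ife-5 are known as germline forms. The genes for eIF4G, ifg-1, and for eIF4A, inf-1, had pooled candidates of 68.1 (rank 4226) and 63.6 (rank 4566), the nearest of all unbound genes to the threshold of rank 4133. The strongest candidate at ifg-1 had rank 3434 in replicate 1 and 6741 in replicate 2. At inf-1 the strongest candidate had rank 6242 in replicate 1 and 22561 in replicate 2, but these were different sites, with summits 1421 bp apart. Just inside the threshold were eef-1B.2 at 78.2, eif-6 at 78.6 and eif-4A3 at 83.5.

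The last 2 genes act beside the translation cycle. The helicase eIF4A3 belongs to the exon junction complex, and eIF6 works in the maturation of the large ribosomal subunit. Both were bound, but weakly: eif-4A3 had 40.6 in replicate 1 (rank 3587) and 39.8 in replicate 2 (rank 3691), and eif-6 had 34.1 in replicate 1 (rank 4452) and 49.1 in replicate 2 (rank 2836). Neither was the coding gene nearest to its summit, but eif-6 at 334 bp was in a near tie with pbs-2 at 332 bp. Among the 33 genes left when eEF1, eEF2 and eIF5A are set aside, 15 were bound (45.5%), against 14.7% of all protein-coding genes.

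The replicates were also read singly. A summit among the 4133 strongest candidates of both replicates lay at 19 of the 41 genes (46.3%), against 12.2% of all protein-coding genes, and all 19 were among the 22 bound genes. With replicate 1 alone 21 genes were bound, against 14.7% of coding genes: ifg-1 came in, and eif-3.H and eif-6 went out. With replicate 2 alone 21 genes were bound, against 14.3%, and eef-1B.2 went out. All 22 bound genes had a candidate in both replicates, and the summits of the replicates lay between 0 and 49 bp apart, with a median of 15 bp. Over these 22 genes the rank in replicate 1 and the rank in replicate 2 had a Spearman rho of 0.940, which is a description of peaks that share their 2 libraries. Among the unbound genes, 14 had a candidate in both replicates, with a rho of 0.455 and a median gap of 67 bp, and 7 of the 14 had summits no more than 50 bp apart. Bound genes are those with a peak that passed the authors' reproducibility threshold, made from these same replicates. Closer agreement at them therefore follows in part from that selection and is no separate check of the calls.

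**Figure D3:**
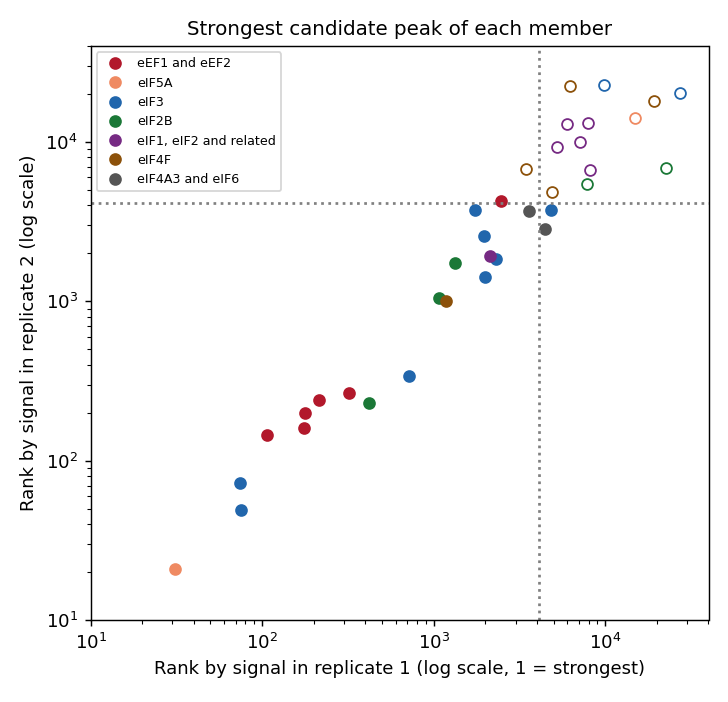
Rank by signal of the strongest candidate of each gene in replicate 1 (horizontal axis) and in replicate 2 (vertical axis), both on log scales with 1 for the strongest, for genes with a candidate in both; filled points are bound, open points are not, and the dotted lines mark rank 4133. The 19 genes in the lower left corner, inside both lines, are all bound, iff-2 lies nearest the origin, and 3 bound genes lie across 1 of the lines.

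The bound summits sat close upstream of the genes. The median distance to the nearest 5′ end of the gene was -240.5 bp (negative upstream) and the range -947 to 3 bp. Over all pairs of a coding gene and an optimal summit in its window, the median was -235 bp. Of the 22 summits, 19 (86.4%) lay within 500 bp upstream, against 72.4% of all pairs of a coding gene and an optimal summit. The 2 summits farther out were those at eif-2Bgamma and eif-3.J, at 890 and 947 bp upstream. In 5 genes the summit lay within 100 bp of the 5′ end: iff-2, eef-2, eef-1G, eef-1B.1 and eif-2Bdelta. Many mRNAs of this nematode are trans-spliced, which can place the annotated 5′ end inside the primary transcript, so these distances need not be distances to the start of transcription. By position, 17 summits were intergenic, 3 lay in an untranslated exon, 1 in an intron, 1 in a noncoding gene and 0 in a coding exon. Among all coding promoter peaks 69.8% were intergenic and 14.3% in an intron. The DNA within 50 bp of the summits had a median GC content of 50%, against 45.5% for all coding promoter peaks, and the median peak width was 339 bp, against 400 bp. The widest of the 22 peaks measured 400 bp, and all those of that width had rank 1078 or weaker. Width was therefore not read apart from signal.

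**Figure D4:**
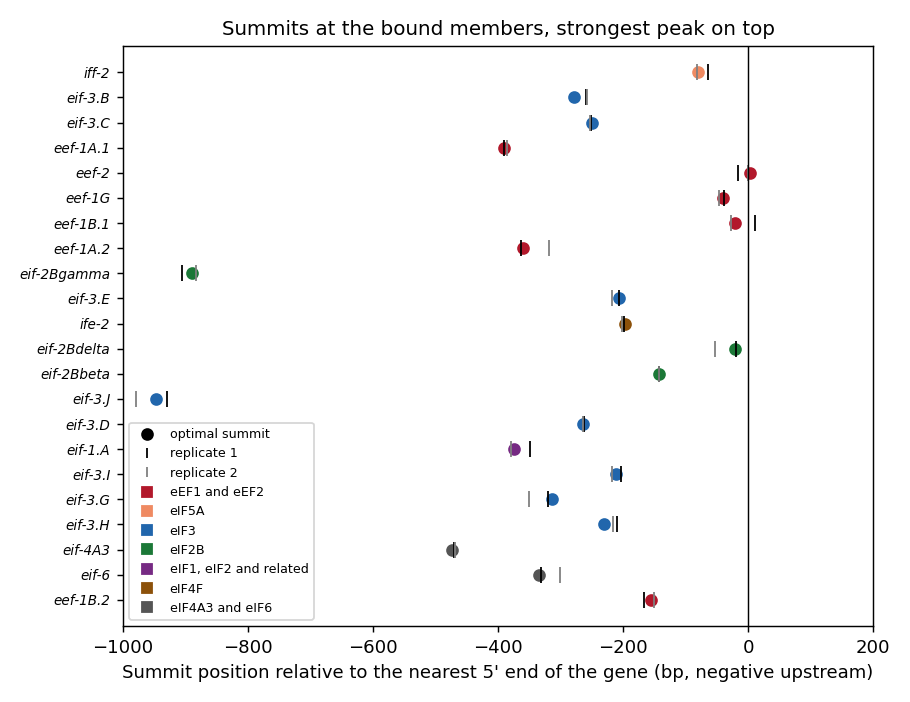
Position of the summit relative to the nearest 5′ end of the gene (horizontal axis, bp, negative upstream) at the 22 bound genes, ordered by signal with the strongest on top; points are optimal summits and ticks are the summits of the strongest candidates of replicate 1 (black) and replicate 2 (grey). Most points lie within 500 bp upstream, eif-2Bgamma and eif-3.J lie at -890 and -947 bp, and the ticks of a gene are at most 49 bp apart.

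Many of these summits lay in the windows of a pair of genes. Of the 22 peaks, 13 (59.1%) also lay in the window of another coding gene, against 28.8% of all coding promoter peaks. In all 13 that gene was on the opposite strand. The same strand count over all shared coding promoter peaks is not given here, so it is not read as a trait of these genes. The partners of the elongation factor genes were rfc-4, a subunit of the clamp loader of DNA replication, for eef-1A.1, ctf-4 for eef-1G and clsp-1 for eef-2, which also encode replication fork proteins, and aco-2, the mitochondrial aconitase, for eef-1B.1. The remaining partners were F54C9.14 for iff-2, R08D7.4 for eif-3.D, B0511.17 for eif-3.E, C41D11.3 for eif-3.H, abtm-1 for eif-3.I, Y47H9C.8 for eif-2Bbeta, H06H21.37 for eif-1.A, vps-20 for eif-4A3 and pbs-2, a proteasome subunit, for eif-6. In 6 of the 13 pairs the partner's 5′ end was the closer one: rfc-4 at 150 bp from the summit, R08D7.4 at 50 bp, C41D11.3 at 139 bp, Y47H9C.8 at 61 bp, vps-20 at 14 bp and pbs-2 at 332 bp. The last was a near tie, as eif-6 itself lay 334 bp from the summit. With each summit given only to the nearest coding 5′ end, 16 of the 41 genes were bound (39%), against 11.2% of all protein-coding genes. When noncoding genes other than piRNA genes also competed for the summit, 14 were bound (34.1%), against 9.69%. In addition, the eef-1A.1 summit was 18 bp from the 5′ end of cel-mir-5549, the peak at iff-2 was in the window of the snoRNA gene F54C9.12, and a noncoding RNA gene, R03G5.8, was nearer to the eef-1A.2 summit than eef-1A.2 itself, at 231 bp.

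Divergent neighbours were then counted at bound and unbound genes alike. A divergent coding gene started within 1000 bp upstream of 21 of the 41 genes (51.2%), against 17.7% of all coding genes. Of these 21 genes, 13 were bound, and of the 20 others 9. Over all coding genes, 31.6% of those with such a neighbour were bound and 11% of those without. The 8 unbound genes with a divergent neighbour were iff-1, eif-3.L, egl-45, eif-2Balpha, eif-2Bepsilon, eif-1, eif-2D and ifg-1. With peaks in the window of another coding gene left out, 9 genes stayed bound (eef-1A.2, eef-1B.2, eif-3.B, eif-3.C, eif-3.G, eif-3.J, eif-2Bgamma, eif-2Bdelta and ife-2), against 7.9% of all protein-coding genes.

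**Figure D5:**
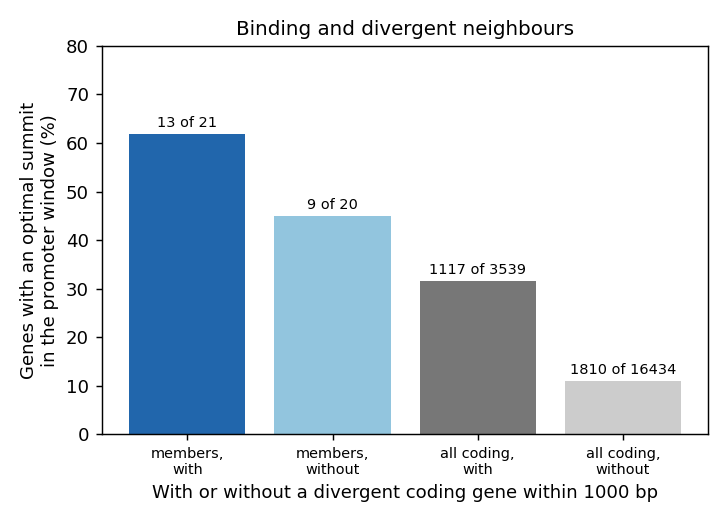
Share of genes with an optimal summit in the window (vertical axis, percent) among the translation factor genes with and without a divergent coding gene within 1000 bp, and among all protein-coding genes with and without one; the numbers over the bars are bound genes of all genes in the group. The shares are 13 of 21 and 9 of 20 for the factor genes, against 1117 of 3539 and 1810 of 16434 for all coding genes.

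Genes that lie close behind another gene on the same strand can be later genes of an operon, read from the promoter of the first. Operons are not annotated in the files, and distance was taken in their place. Of the 41 genes, 13 had a coding gene ending within 1000 bp upstream on the same strand, and 29.7% of all coding genes had one. Of these 13 genes, 5 were bound, against 17 of the other 28. Over all coding genes, 11.6% of those with such a neighbour were bound and 16% of those without. For 3 of the 8 unbound genes the neighbour itself held an optimal summit: phb-1, a mitochondrial prohibitin, with 109.5 ahead of eif-2alpha, B0348.10 with 110.6 ahead of ife-3, and nud-1 with 91.1 ahead of ife-1. The same held for 2 of the 5 bound genes, with fcd-2 ahead of eef-1B.2 and sys-1 ahead of eif-3.C. No peak of a factor gene lay in its neighbour's own window. However, the eif-3.J summit, 947 bp upstream and in an untranslated exon, lay beyond the end of slc-25A46 at 878 bp. The eif-2Bgamma summit, 890 bp upstream and in an intron, lay beyond the end of C15F1.5 at 252 bp. The share of bound neighbours over all coding genes is not given here, and counts this small do not compare bound with unbound genes. Reading from a neighbour's promoter was not tested.

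The DNA under the 22 summits was searched within 50 bp on both strands for 5 words. GAGAGA was found at 3 peaks (13.6%), those of eef-1A.1, eef-1A.2 and eif-2Bbeta, against 23.2% of all optimal peaks and 20.3% of coding promoter peaks. The longer word GAGACGCAG was at 0 of the 22, against 7.26% of optimal peaks. The E-box CACGTG was at 0, against 8.13%. AGGTCA, the core element that many nuclear receptors recognise, was at 0, against 4.21%. TATAAA, the letters of a TATA box, was at the eif-3.B summit alone, against 6.29% of optimal peaks. That summit lay 278 bp upstream of the 5′ end, and the position that a TATA box would take was not checked. No match says only that these letters are not in these windows. Counts were small, and a window of 25 bp held GAGAGA at 0 of the 22. Across the 44 windows centred 300 bp to either side of the summits, 3 held GAGAGA (6.82%) and 4 held TATAAA (9.09%).

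All 8192 words of 7 letters were also counted, with both strands together. This search was made after the values were seen, so its leading words are a description of these 22 windows. The most frequent was CAAACAC, in 8 windows (36.4%): those of eef-1A.1, eef-1B.1, eef-2, eif-3.G, eif-3.I, eif-3.J, ife-2 and eif-6. It was in 5.2% of all optimal peaks, in 7.01% of coding promoter peaks and in 1 of the 44 flanking windows (2.27%). No other word was in 6 or more of the windows, and 8 words were in 5 or more. The shares of these words among all optimal peaks lay between 2.06% for ATTTGCG and 10.2% for AAAAAAT, and AAAAAAT was in 22.7% of the summit windows, against 27.3% of the flanking windows.

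The ribosomal protein genes, the nearest other part of the translation machinery, were bound more often and under stronger peaks. By the same rule 22 of the 41 factor genes (53.7%) were bound, against 64 of 78 ribosomal protein genes (82.1%). Median signals were 193.3 at the factor genes and 239.8 at the ribosomal protein genes, and the median percentiles were 74.0 at the factor genes and 81.7 at the ribosomal protein genes. The median summit distances were -240.5 bp at the factor genes and -294 bp at the ribosomal protein genes, and 59.1% of the factor gene peaks and 66.1% of the ribosomal protein gene peaks were shared with another coding gene. Median GC content was 50% at the factor genes and 50.5% at the ribosomal protein genes. CAAACAC was in 36.4% of the factor gene windows and in 3.23% of the ribosomal protein gene windows. The word was picked as the most frequent one in the factor gene windows themselves. That choice favours a higher share there, so these shares do not compare the groups of genes. The differences between factor genes and ribosomal protein genes were not tested, since the genes were chosen with results of these data known.

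A list of 25 further translation genes was read beside them, and 13 were bound (52%), against 14.7% of all protein-coding genes. The list also held iftb-1 and ppp-1, which are older names of eif-2beta and eif-2Bgamma and so were already counted among the 41. The strongest were larp-1, for a regulator of the translation of ribosomal protein mRNAs in mammals, with a signal of 742.7, and ifet-1, for a repressor that binds eIF4E, with 742.4. The ABC ATPase gene abcf-2 followed with 470.8 and abcf-3 had 154.3. Genes for mitochondrial elongation factors included gfm-1 with 374.8 and tufm-2 with 268.3. Among regulators, mnk-1, for the kinase of eIF4E, had 258.0, the eIF2 kinase genes gcn-2 and pek-1 had 136.7 and 133.9, and daf-15, for the TOR partner Raptor, had 91.2. The poly(A)-binding protein gene pab-2 had 250.0, and the release factor genes erfa-3 and erfa-1 had 168.0 and 72.5. The peak at erfa-1 was near the threshold (rank 3909), and its strongest candidates had rank 14101 in replicate 1 and 2530 in replicate 2. The 12 unbound genes were iffb-1, pab-1, efk-1, gcn-1, abcf-1, rsks-1, let-363, tufm-1, tsfm-1, sbds-1, ncbp-1 and ncbp-2. The kinase gene for eEF2, efk-1, had a pooled candidate of 30.4, and let-363, for TOR, one of 39.6. At gcn-1, replicate 1 (rank 1033) and replicate 2 (rank 989) each had a strong summit in the window, but no pooled summit lay inside it.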

How the data were processed

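ChIP-seq peaks of GFP-tagged NHR-90 were read for 2 biological replicates of whole L1 larvae, 1 group by the labels. The authors deposited narrowPeak lists, each with a signal value per peak whose scale is not stated. The −log10 q-value was deposited too and was 3.99 for the optimal peaks, so it was not used. Per the file listings deposited with the data, each replicate was called against a control, a pooled list was made from both replicates, and the optimal list was thresholded on the irreproducible discovery rate. No peak caller or aligner is named there. Candidate lists include background by design, so weak candidates reach into noise. The lists carry no read counts, so each library's depth, and with it the counting error, is unknown.

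Coordinates are 1-based on ce11, and lists on ce10 were not used. Genes came from Ensembl release 115 (WBcel235) and DNA from the RefSeq genome of the same assembly. A summit could count for several genes. Every gene of the rule is named. The genes, lists and words searched were chosen with earlier results of these data known. No test was run: with 1 group and no second condition, counts are given beside the same counts over all coding genes, and genes and peaks are not replicates. Flanking windows were centred 300 bp from the summit. Alternatives were stricter and looser lists, each replicate alone, other windows and other assignments of summits to genes; the nearest 5′ end of any gene, peaks without shared genes and the distances for divergent neighbours were added after seeing the data. The window search was checked on simulated data, where 200 of 200 planted genes were recovered. Python 3.11.15, NumPy 2.4.6 and SciPy 1.17.1 were used.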

Additional observations from a re-analysis of the deposited data

How the results depend on the processing

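The count of 22 bound genes kept within 1.5 times of itself under 8 of 11 alternatives. It was 37 with all pooled candidates, 14 with each summit given only to the nearest 5′ end of any gene (added after seeing the data; eef-1A.1, eef-1A.2, eif-2Bbeta, eif-2Bgamma, eif-3.D, eif-3.H, eif-4A3 and eif-6 went out) and 9 without peaks shared with other coding genes (added likewise). Leaving out 1 replicate gave 21 either way. Of 451 calls of single genes under the alternatives, 392 were as in the optimal list and 59 were not. Of the bound genes, 4 were bound under all 11: eif-3.B, eif-3.C, eif-2Bdelta and ife-2. The median percentile was 85.2 in the upper 50% of the list, and without replicate 2 or without replicate 1 it was 74.2 to 75.7. The median distance was -228.5 bp in the upper 50% of the list and -253 to -252 bp with a replicate left out. GAGAGA was at 0 peaks and TATAAA at 0 peaks within 25 bp; within 100 bp TATAAA was at 3 peaks and AGGTCA at 1. Genes with a close upstream neighbour on the same strand numbered 7 at 500 bp, and those with a divergent neighbour 13 at 500 bp. The causes of these changes were not tested, beyond the fewer or more peaks, bases and neighbours that each setting takes in by construction. No paired analysis was possible because both replicates belong to 1 group. Depth per library is unknown, so an unbound gene may only have been below what these libraries could show.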
